A study of Homo sapiens with 4 samples.

Results

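The 10 genes described here encode the enzymes that place and remove N6-methyladenosine (m6A) on mRNA and the YTH-domain proteins that bind it. They were chosen by gene symbol: the writer complex genes METTL3, METTL14, WTAP and VIRMA, the demethylase (eraser) genes ALKBH5 and FTO, and the reader genes YTHDF1, YTHDF2, YTHDF3 and YTHDC1. All 10 were found among the 20322 targets of the deposited table, each as 1 protein-coding transcript, and all 10 passed the filter on low counts. The study sequenced RNA of HT-29, a human colorectal adenocarcinoma line, in 4 libraries whose lines the labels trace to a mouse liver metastasis. IMP1, an RNA-binding protein encoded by IGF2BP1, had been targeted by CRISPR/Cas9 in every library, and all lines were kept under puromycin. In 2 libraries (null) the cells carried the empty PB* PiggyBac vector, and in the other 2 (IMP1-OE) they carried a PB* vector with FLAG-IMP1 and a short UTR, so the controls share the deletion and the vector system. The design text counts 2 lines per genotype. Nothing further says whether replicates were separate clones or cultures, so the p-values measure only the spread between these libraries, which may be technical.

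m6A is placed on mRNA in the nucleus by a complex in which METTL3 is the catalytic subunit, METTL14 its RNA-binding partner, WTAP the adaptor that brings the pair to nuclear speckles, and VIRMA a large scaffold subunit. ALKBH5 and FTO remove methyl groups from RNA. YTHDC1 reads m6A in the nucleus, where it acts in splicing and export, and the YTHDF proteins read it in the cytoplasm, where YTHDF2 is best known for recruiting the CCR4-NOT deadenylase to methylated mRNAs. IMP1 and its relatives are a further class of proteins reported to bind methylated mRNAs and to stabilise them. The comparison described here asks whether the mRNAs of this machinery differ in level between cells with the FLAG-IMP1 vector and cells with the empty vector.

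Library totals ran from 9343429 to 10594813 counts. ARSI, an arylsulfatase gene, took 17.8% and 17.3% of them in null replicates 1 and 2 and 8.01% and 12.4% in IMP1-OE replicates 1 and 2, so its share was lower in both IMP1-OE libraries. IGF2BP1 had 37 and 16 counts in null replicates 1 and 2 and 71 and 112 in IMP1-OE replicates 1 and 2, so its order followed the labels. The difference was 3.22-fold (log2 1.69, SE 0.56) and was not called (edgeR adjusted p = 0.453). Per length (TPM, counts per target length scaled to the same sum in every library), IGF2BP1 was at 0.735 and 0.371 in null and 1.44 and 2.23 in IMP1-OE. Its mean over all 4 libraries, null included, was at percentile 8.45 of the tested genes. These values divide by a target of 8796 nt, which may not be the length of the vector transcript with its short UTR. They therefore do not settle the level of IMP1 mRNA in the IMP1-OE cells. Null replicate 2 stood apart from the other libraries: 10 listed interferon-stimulated genes summed to 4467 CPM (counts scaled to library size) in it and to 344 to 462 CPM in the other libraries. Of 10 listed colorectal epithelial markers, 8 passed the filter on low counts and their list summed to 21036 to 28739 CPM. The exceptions were the intestinal transcription factor genes CDX1, at 0 counts in all libraries but null replicate 1 (9 counts), and CDX2, at 0 to 47 counts. The hepatocyte markers ALB, APOA1 and CYP3A4 and the T cell marker CD3E were at 0 counts in all 4 libraries, where a count of 0 allows up to 3. The fourth hepatocyte marker, TTR, had 18 and 1 counts in null and 2 and 2 in IMP1-OE. The leukocyte list was not absent as a whole, since LYZ, which some epithelial cells also make, stood at 1378 to 2798 CPM while PTPRC had 0 to 5 counts. CD68, also on that list, had 174 and 149 counts in null and 132 and 64 in IMP1-OE. Of the listed fibroblast and endothelial markers, only COL1A1 (7 to 35 counts) and PECAM1 (21 to 33 counts) passed the filter.

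None of the 10 genes passed the test between IMP1-OE and null. The edgeR quasi-likelihood test with Benjamini-Hochberg adjustment over all 12113 tested genes called 0 of the 10, and it called 0% of all tested genes. At an unadjusted p under 0.05 it gave 0 of the 10, where 10.2% of tested genes had such a p. DESeq2 called 0 of the 10 (1.28% of the genes it adjusted), limma-voom 0 (0.00826%) and the edgeR likelihood ratio test 0 (1.28%). Of the 10 genes, 5 were fitted higher and 5 lower in IMP1-OE, where 48.1% of tested genes were higher. Their median log2 fold change was 0.04, beside -0.02 over all tested genes. With null replicate 2 left out, edgeR again called 0 of the 10, and 5 were fitted higher.

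In 7 of the 10 genes the libraries of the groups overlapped, and in 3 they did not, where 43.2% of tested genes had groups that did not overlap. METTL3 and FTO were higher in both IMP1-OE libraries than in both null libraries, as were 21.3% of tested genes. YTHDF3 was lower in both, as were 21.9% of tested genes. In size, the differences of the 10 genes were small, with a median absolute log2 fold change of 0.11, beside 0.29 over all tested genes and 0.24 over the 8446 genes with a mean of at least 100 counts. The 2 null libraries differed from each other by a median of 0.19 log2 units over the 10 genes and the 2 IMP1-OE libraries by 0.13, beside 0.32 and 0.18 over the genes with a mean of at least 100 counts.

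**Figure D1:**
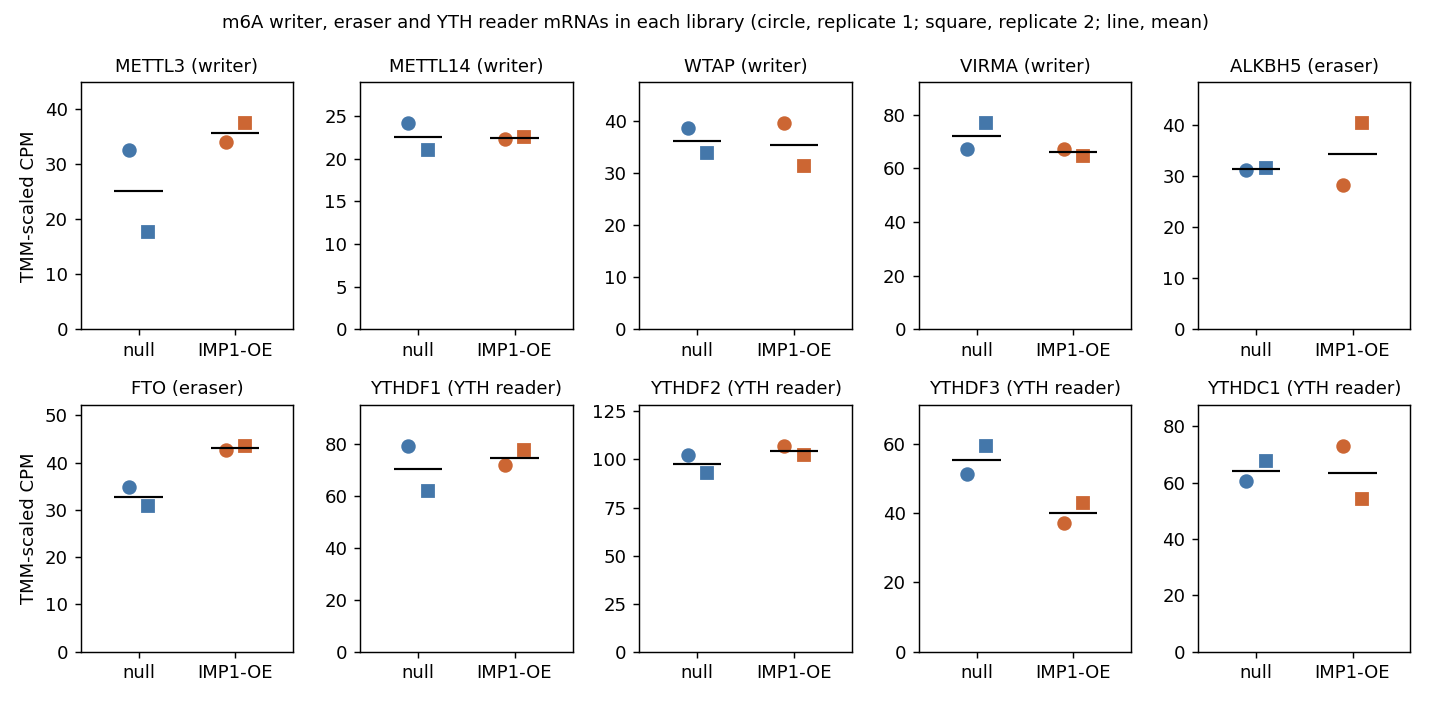
Level of each of the 10 mRNAs in each library, in TMM-scaled CPM (linear axis from 0, a separate scale per gene), with circles for replicate 1, squares for replicate 2 and a line at the mean of each group. Only METTL3, FTO and YTHDF3 have groups that do not overlap, and the low METTL3 value of 17.7 CPM is null replicate 2.

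Levels were first compared between genes on a per-length scale, TPM, in which counts are divided by effective target length and scaled to the same sum in every library. YTHDF2 was the most abundant of the 10 in every library, at 65.0 and 61.7 TPM in null replicates 1 and 2 and 71.3 and 67.0 TPM in IMP1-OE replicates 1 and 2. The YTHDF2 groups did not overlap in TPM but did in CPM, the scale on which groups are compared below. The TPM values here serve to compare genes and not groups. The lowest YTHDF2 value lay above the highest value of every other member. By its mean over the 4 libraries (66.3 TPM) YTHDF2 stood at percentile 83.6 of the tested genes. YTHDF1 (mean 41.9, range 36.1 to 44.9 TPM) and YTHDC1 (mean 39.6, range 33.5 to 46.0 TPM) followed, and their ranges overlapped, so their order is not separated from their spread.

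The next genes in the per-length order were the writer genes WTAP (mean 31.6, range 27.7 to 35.4 TPM) and METTL3 (mean 28.5, range 16.8 to 35.0 TPM). VIRMA (mean 19.6, range 18.3 to 22.1 TPM), ALKBH5 (mean 19.2, range 16.8 to 23.6 TPM) and YTHDF3 (mean 17.3, range 13.7 to 21.7 TPM) came after them. From YTHDF1 down to YTHDF3 each gene's range overlapped that of its neighbour. A gap separated the other 8 genes from METTL14 (mean 6.25, range 5.90 to 6.50 TPM) and FTO (mean 6.03, range 4.95 to 6.92 TPM), whose ranges overlapped each other and lay below those of all other members. METTL14 and FTO stood at percentiles 33.2 and 32.5 of the tested genes. YTHDF2 exceeded METTL14 10.6-fold in mean TPM. Each gene is represented by 1 transcript, so a level per length also rests on that transcript being the one the cells make; the FTO target is 11573 nt long and the METTL14 target 6642 nt, while that of METTL3 is 1980 nt.

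**Figure D2:**
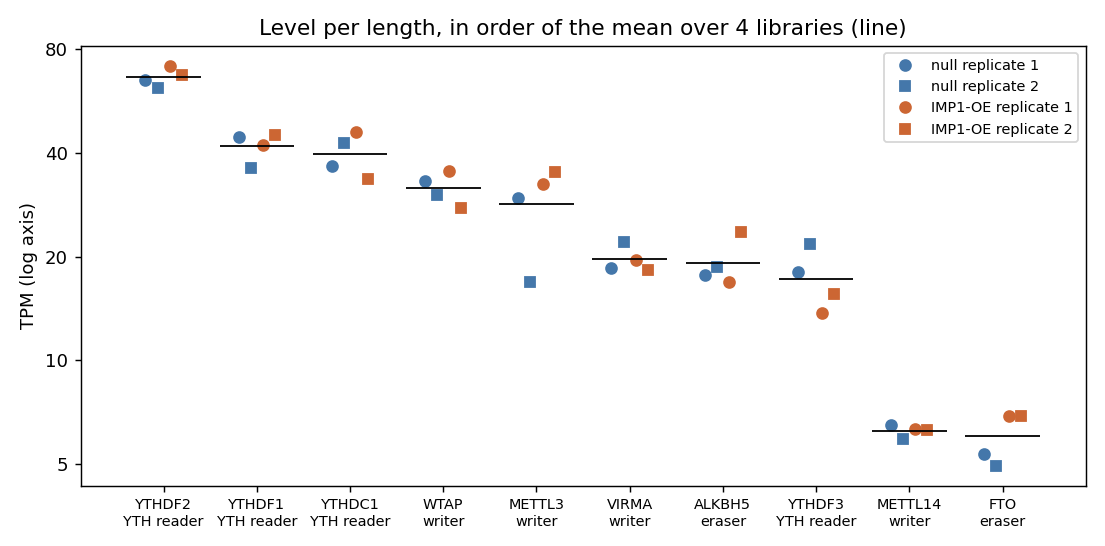
Level per length in TPM (log axis) of the 10 mRNAs in the 4 libraries, ordered by the mean over the libraries (black line). YTHDF2 lies between 61.7 and 71.3 TPM, above all others, and METTL14 and FTO lie between 4.95 and 6.92 TPM, below all others.

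Differences between groups were then measured on CPM, counts scaled to library size (with TMM factors) and not divided by length. Among the writers, METTL3, the catalytic subunit, was at 32.6 and 17.7 CPM in null replicates 1 and 2 and at 34.0 and 37.4 CPM in IMP1-OE replicates 1 and 2 (counts of 333, 162, 357 and 393). Null replicate 2 was the low library, and the other 3 lay close together. Null averaged 25.1 ± 10.5 CPM and IMP1-OE 35.7 ± 2.39 CPM (SD, n = 2, as for all means here). The fitted log2 fold change was 0.50 (SE 0.32), with a 95% interval of -0.29 to 1.29 and an edgeR adjusted p of 0.632. Leaving out null replicate 2 brought it to 0.13, and leaving out null replicate 1 brought it to 1.01. With null replicate 1 left out and the low-count filter repeated on the libraries left, METTL3 was called by edgeR (adjusted p = 0.0225, log2 fold change 1.02), against an adjusted p of 0.0643 with the tested genes kept. That fit called 11.8% of all its tested genes, so 1 of the 10 is near the background share. Its null group is null replicate 2 alone, so the spread comes from the IMP1-OE pair and the lone library is assumed to vary like it.

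The library with low METTL3 is the one with high interferon-stimulated genes. It also had the lowest summed colorectal epithelial markers (21036 CPM, against 26552 to 28739 CPM in the others). KRT8 (9484 CPM) and KRT18 (6865 CPM) were the largest parts of that sum and were lowest there, as were KRT20 and VIL1. EPCAM, CDH1, KRT19 and LGALS4 were instead lowest in an IMP1-OE library. The part of the interferon-stimulated genes or of the marker sum in the METTL3 value was not tested. By RefSeq annotation METTL3 overlaps TOX4, a chromatin-associated HMG-box gene, and whether the counting used strand is not stated in the labels or file headers. TOX4 was at 37.2, 26.8, 31.2 and 30.1 CPM in null replicates 1 and 2 and IMP1-OE replicates 1 and 2, so it too was lowest in null replicate 2. The members METTL14, FTO, YTHDF1 and YTHDF2 were also lowest there, and WTAP, VIRMA, ALKBH5, YTHDF3 and YTHDC1 were not. The fitted log2 fold change of TOX4 between the groups was -0.06 (SE 0.24, edgeR adjusted p = 0.953).

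METTL14, the partner of METTL3, was at 24.2 and 21.0 CPM in null and 22.4 and 22.6 CPM in IMP1-OE. Both IMP1-OE values lay between the null values, and the log2 fold change was -0.01 (SE 0.22, 95% interval -0.56 to 0.54, edgeR adjusted p = 0.996). WTAP, the adaptor, was at 38.6 and 33.8 CPM in null and 39.5 and 31.4 CPM in IMP1-OE, so the null values lay inside the IMP1-OE range. Its log2 fold change was -0.03 (SE 0.22, 95% interval -0.57 to 0.50, edgeR adjusted p = 0.972). WTAP overlaps SOD2, the gene of a mitochondrial superoxide dismutase, which was at 101 and 161 CPM in null and 107 and 142 CPM in IMP1-OE and was high in the libraries where WTAP was low within its group (replicate 2 of each); the part of shared fragments in this was not tested.

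VIRMA, the scaffold subunit, was at 67.3 and 76.7 CPM in null and 67.4 and 64.4 CPM in IMP1-OE. The groups overlapped by a narrow margin, and null replicate 2 was the high library. Its log2 fold change was -0.13 (SE 0.18, 95% interval -0.57 to 0.31, edgeR adjusted p = 0.845). On the fold scale the intervals of METTL14, WTAP and VIRMA reach from 0.675 to 1.46 (IMP1-OE over null). Differences of that size between the groups are within what these 4 libraries can leave undetected. Larger ones can be missed too, since on simulated counts the same fit called 23% of genes changed by 1 log2 unit. The 4 writers together summed to 163 and 149 CPM in null and 163 and 156 CPM in IMP1-OE.

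Of the erasers, FTO, a demethylase that also acts on the methylated adenosine beside the mRNA cap, was at 34.8 and 30.8 CPM in null and 42.6 and 43.5 CPM in IMP1-OE (counts of 356, 281, 448 and 458). Both IMP1-OE libraries lay above both null libraries, and the 2 IMP1-OE values were close to each other. Null averaged 32.8 ± 2.88 CPM and IMP1-OE 43.1 ± 0.638 CPM, a 1.31-fold difference. The log2 fold change was 0.39 (SE 0.19), with a 95% interval of -0.08 to 0.87 and an edgeR adjusted p of 0.536. It ran from 0.31 to 0.49 with each library left out in turn, and an unadjusted p as small as that of FTO or smaller was common, since 16.3% of tested genes had a smaller one.

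ALKBH5, the other demethylase, was at 31.2 and 31.5 CPM in null and 28.3 and 40.3 CPM in IMP1-OE. The null libraries were nearly equal and lay between the 2 IMP1-OE libraries, which differed by 0.51 log2 units. The log2 fold change was 0.13 (SE 0.24, 95% interval -0.46 to 0.72, edgeR adjusted p = 0.887), and the direction rested on IMP1-OE replicate 2: it was -0.14 without that library and 0.36 without IMP1-OE replicate 1.

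Among the readers, YTHDF3, a cytoplasmic reader reported to act together with both of its paralogs, had the smallest p of the 10 genes. It was at 51.3 and 59.3 CPM in null and 37.2 and 43.0 CPM in IMP1-OE (counts of 525, 542, 391 and 452). Both IMP1-OE libraries lay below both null libraries. Null averaged 55.3 ± 5.63 CPM and IMP1-OE 40.1 ± 4.07 CPM, so null was 1.38-fold higher. The log2 fold change was -0.46 (SE 0.20), with a 95% interval of -0.95 to 0.02, an unadjusted edgeR p of 0.0575 and an adjusted p of 0.502. It ran from -0.57 to -0.36 with each library left out in turn, and 11.5% of tested genes had a smaller p.

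YTHDF2, the reader tied to mRNA decay, was at 102 and 93.0 CPM in null and 107 and 102 CPM in IMP1-OE. The groups overlapped at the 102 CPM of null replicate 1 and IMP1-OE replicate 2. Its log2 fold change was 0.10 (SE 0.17, edgeR adjusted p = 0.878), with the narrowest 95% interval of the 10 genes, -0.32 to 0.51, which on the fold scale is 0.803 to 1.43. YTHDF1, reported to promote translation of methylated mRNAs, was at 79.1 and 61.7 CPM in null and 71.7 and 77.6 CPM in IMP1-OE. Both IMP1-OE values lay between the null values, and null replicate 2 was the low library. Its log2 fold change was 0.08 (SE 0.20, edgeR adjusted p = 0.919), and it was -0.08 without null replicate 2.

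YTHDC1, the nuclear reader, was at 60.6 and 67.7 CPM in null and 73.0 and 54.0 CPM in IMP1-OE. Here the IMP1-OE libraries were the more spread, by 0.43 log2 units, and enclosed both null values. Its log2 fold change was -0.02 (SE 0.22, 95% interval -0.55 to 0.52, edgeR adjusted p = 0.988). The 4 readers together summed to 293 and 282 CPM in null and 289 and 277 CPM in IMP1-OE, so the sums of the groups overlapped.

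**Figure D3:**
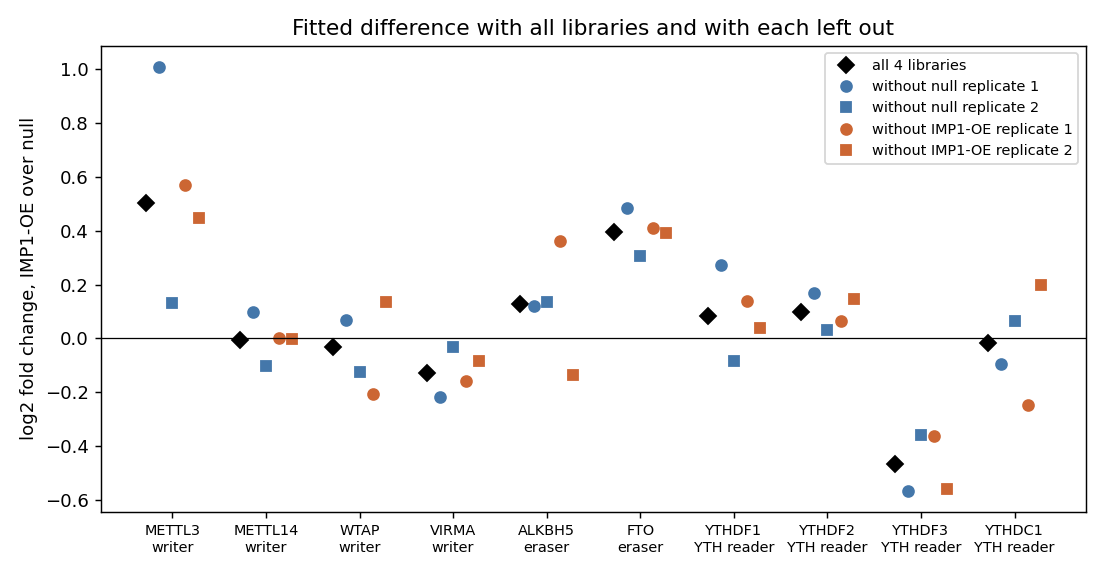
Fitted log2 fold change (IMP1-OE over null) of the 10 mRNAs with all 4 libraries (black diamonds) and with each library left out (blue for a null library, orange for an IMP1-OE library). METTL3 ranges from 0.13 to 1.01, FTO stays between 0.31 and 0.49, YTHDF3 stays between -0.57 and -0.36, and METTL14, WTAP, ALKBH5, YTHDF1 and YTHDC1 have values on both sides of 0.

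Ratios between members within a library do not depend on how libraries are scaled. The ratio of YTHDF2 to YTHDF3 in TPM was 3.61 and 2.84 in null and 5.21 and 4.31 in IMP1-OE, and that of YTHDF1 to YTHDF3 was 2.46 and 1.66 in null and 3.08 and 2.88 in IMP1-OE. In both ratios the groups did not overlap. Both have YTHDF3, the member with the smallest p, as the denominator. They and the YTHDF3 share given below thus largely restate its lower level in IMP1-OE and are not separate results. The ratio of YTHDF2 to YTHDF1 was 1.47 and 1.71 in null and 1.69 and 1.49 in IMP1-OE, so these groups overlapped. YTHDF3 made up 16.2 ± 2.85% of the summed YTHDF1, YTHDF2 and YTHDF3 TPM in null and 11.5 ± 1.02% in IMP1-OE. The YTHDF genes are paralogs, and whether fragments of 18 to 50 nt were shared between their targets was not tested.

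The ratio of METTL3 to METTL14, the subunits of the catalytic pair, was 4.56 and 2.85 in null and 5.14 and 5.58 in IMP1-OE. The groups did not overlap, with the lowest ratio in null replicate 2. ALKBH5 over FTO was 3.30 and 3.77 in null and 2.44 and 3.41 in IMP1-OE, and the summed writers over the summed erasers were 3.80 and 3.17 in null and 3.95 and 2.86 in IMP1-OE, so both of these overlapped. The smallest p that an exact permutation test (two-sided) of 2 libraries against 2 allows is 0.333, so no such test can separate any of these ratios from the replicate spread.

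**Figure D4:**
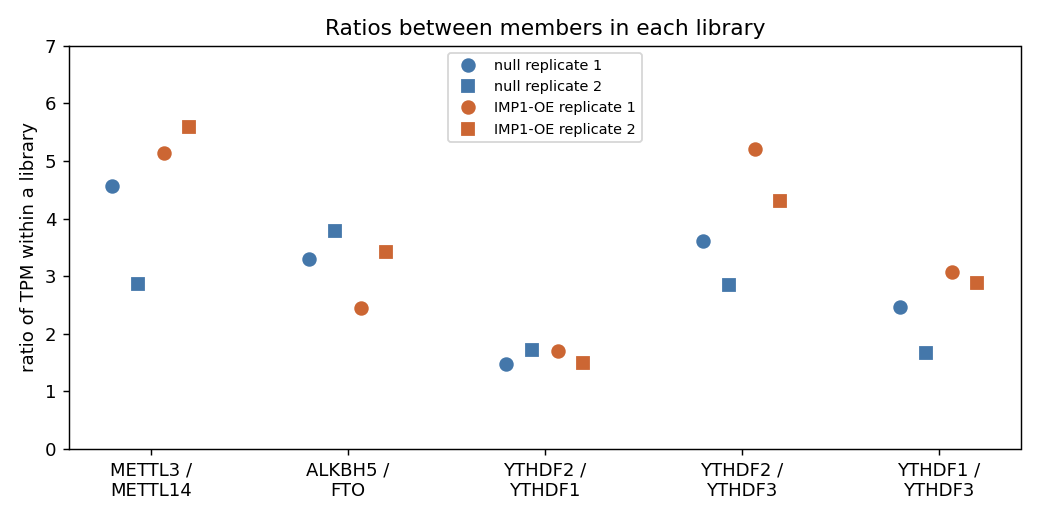
Ratios of TPM between pairs of members in each library (linear axis from 0; blue, null; orange, IMP1-OE; circles, replicate 1; squares, replicate 2). Both ratios with YTHDF3 as the denominator, and METTL3 over METTL14, are higher in both IMP1-OE libraries than in both null libraries, while ALKBH5 over FTO and YTHDF2 over YTHDF1 overlap.

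A list of 28 other genes of the m6A pathway was read from the same fit, and all 28 were tested. The edgeR test called 0 of them, as did DESeq2, limma-voom and the likelihood ratio test. At an unadjusted p under 0.05, 2 were higher in IMP1-OE (4.34% of tested genes were) and 0 lower (5.84%). Fitted values were higher in 18 and lower in 10, with a median log2 fold change of 0.11, beside 48.1% higher and a median of -0.02 over all tested genes. The groups did not overlap in 7 genes that were higher and 4 that were lower in IMP1-OE, beside 21.3% and 21.9% of tested genes.

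The smallest p on this list belonged to AHCY, whose enzyme clears S-adenosylhomocysteine, the product that inhibits methyltransferases. It was at 522 and 458 CPM in null and 727 and 798 CPM in IMP1-OE, with both IMP1-OE libraries above both null libraries. The difference was 1.56-fold (log2 0.64, SE 0.17, unadjusted edgeR p of 0.00929 and adjusted p of 0.435). AHCY was the 1 gene of the 28 called by edgeR without null replicate 1 (log2 0.74, adjusted p = 0.0381), a fit that called 6.46% of all tested genes and in which null is again 1 library. MAT2A, which makes the methyl donor S-adenosylmethionine, was at 251 and 245 CPM in null and 254 and 236 CPM in IMP1-OE. Its regulatory partner MAT2B was at 68.8 and 91.8 CPM in null and 66.5 and 61.7 CPM in IMP1-OE.

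POP1, a subunit of the RNase P and MRP complexes that can cleave YTHDF2-bound RNA, was the other gene with an unadjusted p under 0.05. It was at 42.5 and 44.3 CPM in null and 65.5 and 56.0 CPM in IMP1-OE, 1.40-fold higher (unadjusted edgeR p of 0.0433, adjusted p of 0.483). Of the other YTHDF2 decay partners, CNOT1, the scaffold of the deadenylase, had a log2 fold change of 0.15 (SE 0.17). That of the RNA helicase gene UPF1 was 0.04 (SE 0.17). RIDA, the remaining one, had a value of -0.04 with a wide SE of 0.38. It was at 21.4 and 19.5 CPM in null and 26.8 and 12.9 CPM in IMP1-OE. Among nuclear partners of YTHDC1, the splicing factor gene SRSF3 was at 428 and 403 CPM in null and 544 and 500 CPM in IMP1-OE (log2 0.33, SE 0.16, edgeR adjusted p = 0.536).

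The further writer complex subunits had log2 fold changes from -0.25 to 0.20, and in all 4 the groups overlapped, where 43.2% of tested genes had groups that did not. CBLL1, a ubiquitin ligase subunit of the complex, had the smallest p among them, at 28.5 and 19.7 CPM in null and 21.7 and 18.7 CPM in IMP1-OE (edgeR adjusted p = 0.793). Among other methyltransferases, METTL16, which methylates the MAT2A mRNA and U6 snRNA, was at 12.6 and 13.9 CPM in null and 20.6 and 17.7 CPM in IMP1-OE (log2 0.53, SE 0.26, edgeR adjusted p = 0.545). Of the further readers, IGF2BP3, a paralog of IGF2BP1, had the smallest p, with a log2 fold change of 0.53 (SE 0.25, edgeR adjusted p = 0.536), and YTHDC2, the remaining YTH-domain gene, was at 37.9 and 32.2 CPM in null and 31.3 and 35.1 CPM in IMP1-OE.

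**Figure D5:**
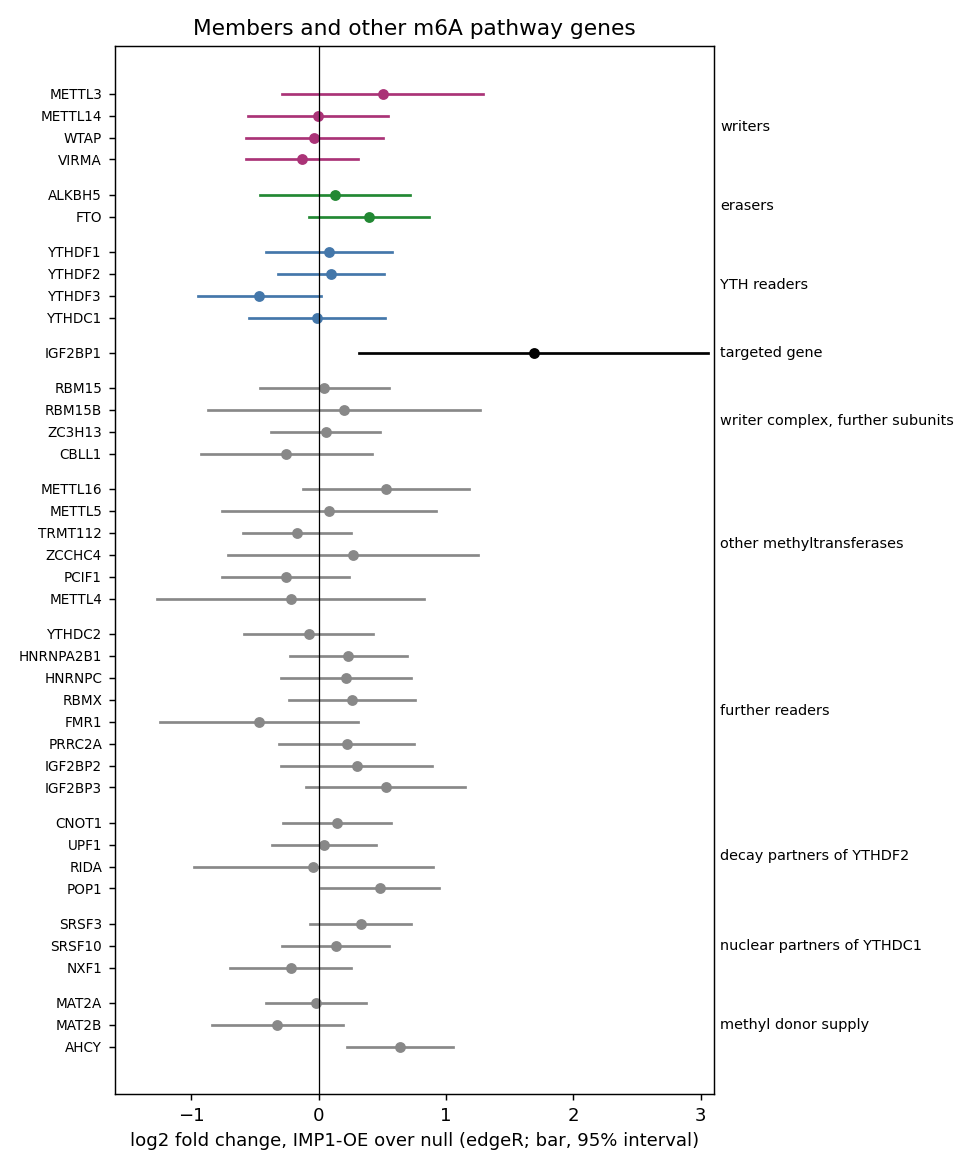
Fitted log2 fold change (IMP1-OE over null, edgeR) with its unadjusted 95% interval for the 10 members (coloured), IGF2BP1 (black) and 28 other m6A pathway genes (grey). All 10 members' intervals include 0; those of IGF2BP1, AHCY and POP1 do not, and no gene shown passed an adjusted p of 0.05.

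In the authors' deposited table, 0 of the 10 genes and 0 of the 28 other pathway genes have an adjusted p under 0.05, where 1.28% of all genes with an adjusted p do. The authors' deposited table gives adjusted p-values of 0.655 for YTHDF3, 0.776 for FTO and 0.817 for METTL3, with log2 fold changes of -0.15, 0.11 and 0.08. These adjusted p-values equal those of the DESeq2 fit computed here from the same counts, so the deposited comparison is not separate support. Only the log2 fold changes differ, since those of the DESeq2 fit here were -0.46, 0.40 and 0.50. The reason for the smaller deposited sizes was not tested.

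Among tested genes with a mean of at least 100 counts, those whose levels followed YTHDF3 most closely over the 4 libraries were PARP8, TRIM65 and TRIM5, with distances of 0.00758, 0.0413 and 0.0432 log2 units between mean-centred log2 CPM values. TRIM5, a retroviral restriction factor gene, was at 51.9 and 60.1 CPM in null and 38.1 and 42.2 CPM in IMP1-OE. They are the closest of 8445 candidates compared over only 4 libraries.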

How the data were processed

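The authors deposited estimated counts for 20322 targets (kallisto names, per the file headers), 1 transcript per gene, all whole numbers, in long form with TPM and effective lengths. Per the labels' protocols, alkaline-fragmented RNA of 18 to 50 nt was ligated to linkers with molecular identifiers, depleted of ribosomal RNA and amplified for 15 cycles. The submitters' processing notes name kallisto 0.46.2, HISAT2 2.1.0, fastp 0.21, cutadapt 3.5 and DESeq, without roles. Not given in the sources used here are genome build, annotation and use of the identifiers; no coordinates are printed, and floors cover counting error only. The authors' deposited comparison table holds log2 fold changes, p-values and mean normalized signal per gene. In the count table, 2 further sample names match no label and were not analysed here.

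Counts were tested with edgeR 4.0.16 in R 4.3.3 (TMM, default low-count filter, quasi-likelihood F test, no covariate, all 4 libraries, 12113 genes, Benjamini-Hochberg threshold 0.05). SEs and 95% intervals derive from that F statistic. TPM recomputed from counts and effective lengths equalled the deposited TPM. DESeq2 1.42.0, limma 3.58.1, other scalings and filters, a replicate block and each library left out were alternatives. On 5 sets of simulated counts the fit called 23% of genes changed by 1 log2 unit and 86.8% of those changed by 2. Those counts followed the trend of dispersion with level, held no library that stood apart, and changed no genes of low level. The real libraries differ in this, and the fit called 0 of their 12113 genes, so the simulated shares may overstate what can be detected here. A chi-square test over genes gave 55.3 per degree of freedom between null libraries and 19.2 between IMP1-OE libraries, above counting noise, so none were merged. All 10 members, IGF2BP1, the gene of each other pathway sublist with the smallest p and any with an unadjusted p under 0.05 were to be named; TOX4, SOD2, MAT2A, MAT2B, CNOT1, UPF1 and YTHDC2 were added after values were seen. The members and lists were chosen with earlier results of these data known.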

Additional observations from a re-analysis of the deposited data

How the results depend on the processing

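METTL3, VIRMA, FTO, YTHDF2 and YTHDF3 kept their direction and stayed short of the threshold under 14 alternatives in scaling, filter, tool, block and libraries. Members with values near 0 changed sign in some. With library totals only, METTL14 was 0.074, WTAP 0.0515 and YTHDC1 0.068, so 8 members were higher, and the median of all genes was 0.06; with upper-quartile scaling METTL14 was 0.00882. With each library left out in turn, log2 fold changes ran from -0.10 to 0.10 for METTL14, -0.21 to 0.14 for WTAP, -0.14 to 0.36 for ALKBH5, -0.08 to 0.27 for YTHDF1 and -0.25 to 0.20 for YTHDC1. The cause was not tested.

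Over all genes, edgeR called 0, and 22 with every gene that had a count kept, 155 with the likelihood ratio test, 15 with the replicate block, and 0 to 783 with a library left out (783 without null replicate 1 and 48 without null replicate 2). DESeq2 called 164 and limma-voom 1. None of these fits called a member, and 0 to 1 other pathway genes were called with a library left out (AHCY without null replicate 1). Repeating the low-count filter after leaving out a library, chosen after seeing the data, gave 0 to 1510 calls, YTHDF1 at -0.0853 without null replicate 2 and 0.283 without null replicate 1, with 1 member (METTL3, log2 1.02, adjusted p 0.0225, against a range of 0.0225 to 0.9999 over all its settings) and 3 other pathway genes (AHCY, FMR1 and IGF2BP3) of 28 without null replicate 1, where 11.8% of all genes were called, and IGF2BP1 was then called too (log2 2.31). That library left the member values METTL14 at 0.11 and WTAP at 0.08.

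The titles give same-numbered libraries a shared replicate number and do not say whether they were prepared together. Their deviations correlated at 0.12 across genes, and the replicate block moved the calls from 0 to 15 with 0 members. The order of the members by level per length was the same with annotated lengths, and taken alone, the null libraries differed from it in 2 and 5 of the 10 places and the IMP1-OE libraries in 4 and 7. With 162 to 1125 counts per member and library, the members' 95% intervals span at least 0.83 log2 units.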

Other observations

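Per length, other genes of the pathway spanned a far wider range than the 10 members. TRMT112, the activator subunit shared by METTL5 and several other methyltransferases, was at 1078 and 935 TPM in null and 925 and 900.0 TPM in IMP1-OE, while METTL5 was at 38.0 and 23.5 TPM in null and 32.6 and 34.0 TPM in IMP1-OE. HNRNPA2B1, an abundant nuclear RNA-binding protein gene reported as a reader, was at 760 and 625 TPM in null and 879 and 783 TPM in IMP1-OE. In CPM, the scale that was tested, its groups overlapped, at 1554 and 1224 in null and 1714 and 1552 in IMP1-OE (edgeR adjusted p = 0.706). Of the further writer subunits, ZC3H13, which anchors the complex in the nucleus, was at 20.5 to 23.3 TPM, close to VIRMA, and RBM15B, an RNA-binding subunit, at 3.47 to 7.69 TPM, with the widest spread of the 28 genes between IMP1-OE libraries (1.17 log2 units in CPM). METTL16 was at 3.93 and 4.52 TPM in null and 6.71 and 5.68 TPM in IMP1-OE.

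FMR1, a translational regulator gene also reported to bind methylated mRNAs, was at 42.1 and 75.9 CPM in null and 38.2 and 47.1 CPM in IMP1-OE, so null replicate 2 alone was high. METTL5 in CPM was lowest in null replicate 2 (10.8 CPM, against 14.9 to 18.3 CPM in the other libraries). Among the members, METTL3, METTL14, FTO, YTHDF1 and YTHDF2 were lowest there too, while WTAP, VIRMA, ALKBH5, YTHDF3 and YTHDC1 were not. This trait is therefore not particular to METTL5 and METTL3, and its share over all tested genes was not counted.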
